A study of Saccharomyces cerevisiae with 72 samples.

Results

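The left arm of chromosome XII of budding yeast (*Saccharomyces cerevisiae*) runs from the left telomere to the centromere, and the systematic names of its genes begin with YLL. The members described here were the YLL features with a median count of at least 10 over 72 RNA-seq libraries, which gave 62 of the 71 YLL features in a count table of 6843 features. The arm was singled out because an earlier reading of the same libraries found its genes higher late in the time courses, so the change from 0 h is a description of the members and carries no test. Levels at 0 h are the baseline of that change, and slopes and differences in change use the same libraries, so these are descriptions too. Calls of the main fits are counted beside their share of all genes, and no p-value is given. The members just inside the count rule were *PAU17* (median count 10), YLL059C (10.5), YLL044W (16.5), *ATG10* (28.5) and YLL020C (29.5), and the features just outside it were YLL017W (4), YLL047W (2) and YLL037W (1). Nuclear genes that passed the same count rule on the other arms, 5578 in all, served as the comparison.

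The study asked which transcripts change as cells accumulate genomes by endomitosis, in which DNA replication is not followed by a complete division. Polyploid *mad1Δ bub2Δ* cells carried deletions of the checkpoint genes *MAD1* and *BUB2* and were grown in nocodazole, a drug that depolymerizes microtubules, at 30 °C. Arrested *MAD1 BUB2* cells received the same drug at the same temperature and enlarged without gaining genomes, and cycling *mad1Δ bub2Δ* cells received the solvent, DMSO. Polyploid *cdc24-1 swe1Δ* cells were shifted to 37 °C, where the temperature-sensitive *cdc24-1* allele stops budding and the lack of the mitotic inhibitor *SWE1* lets the nuclear cycle go on. Arrested *cdc24-1 swe1Δ cdc20-1* cells were shifted to the same temperature, where *cdc20-1* holds them in mitosis, and cycling *cdc24-1 swe1Δ* cells were kept at 25 °C by their sample labels (24 °C in the growth protocol). All cultures grew in rich glucose medium. RNA was taken at 0, 4, 8, 12 and 16 h from the polyploid and arrested cells and only at the first and last of these times from the cycling cells, with 3 replicates at each time.

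All strains shared the W303 auxotrophic alleles of *ADE2*, *LEU2*, *URA3*, *TRP1* and *HIS3* and the *can1-100* allele, except where a deletion brought a marker back: *mad1Δ* carries *URA3*, *bub2Δ* carries *HIS3* and *swe1Δ* carries kanMX. The *cdc20-1* strain was *MATα* and the others *MATa*, and the *cdc24-1 swe1Δ* strain descended from S288C by backcrosses to W303. Chromosome ends can therefore differ between the strains and from the S288C reference (assembly R64) to which the reads were assigned. DNA content, in kilo arbitrary units (kAU), was 425 to 452 kAU at 16 h in polyploid *mad1Δ bub2Δ* cells, against 96.8 to 98.9 kAU in arrested *MAD1 BUB2* cells. It was 245 to 277 kAU in polyploid *cdc24-1 swe1Δ* cells, against 81.0 to 87.4 kAU in arrested *cdc24-1 swe1Δ cdc20-1* cells.

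Total counts were 1597321 to 9987276 per library (median 6918124), of which ribosomal RNA took 0.731% to 47.6%. The 47.6% was in polyploid *cdc24-1 swe1Δ* cells at 12 h, replicate 1. At 16 h these cells held the library of the lowest total (replicate 3) and 1 with 16.7% ribosomal RNA (replicate 2). The members received 19982 to 148882 counts per library, or 0.994% to 2.04% of the nuclear counts. *BUB2* had a count of 0 in all 15 polyploid and 6 cycling *mad1Δ bub2Δ* libraries, while *MAD1* still had 121 to 349 counts in the polyploid and 125 to 341 in the cycling libraries, against 372 to 1012 in arrested *MAD1 BUB2* cells. The extent of the *mad1Δ* deletion is not given in the sources used here. *SWE1* had a count of 0 in the *swe1Δ* libraries, with 1 exception. The library labelled arrested *cdc24-1 swe1Δ cdc20-1*, 16 h, replicate 2 held 152 *SWE1* counts and 490 CPM of *STE2* (CPM are counts scaled to the library total, adjusted by a normalization factor, TMM), a gene of *MATa* cells, against 6.92 to 30.2 CPM in the other 14 libraries of that strain. Most results of these cells at 16 h are given below with its own value, per library, or without it. Means of these cells with no such remark, also in the figures, include it.

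Genes near budding yeast telomeres lie in chromatin that the Sir proteins silence in part, and many of them serve the uptake or use of nutrients that cells need only under some conditions. The left end of chromosome XII holds such genes for sulfur compounds, among them a permease and a methyltransferase for S-methylmethionine, a cysteine transporter and a dioxygenase that frees sulfite from sulfonates. The rest of the arm holds genes of many functions, including ribosome synthesis, protein folding, mitochondria and the spindle pole, and the ribosomal DNA lies on the right arm of the same chromosome.

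The arm's genes were higher at 16 h than at 0 h in both kinds of nocodazole-treated cells and in the arrested cells at 37 °C, by less in the polyploid cells at 37 °C, and lower in cycling *mad1Δ bub2Δ* cells. For each library the shift is the median log2 CPM change of the members from the 0 h mean of the same cells, minus the same median over the 5578 other nuclear genes. At 16 h the shift was 0.62, 0.56 and 0.68 in the 3 libraries of polyploid *mad1Δ bub2Δ* cells, and 0.42, 0.65 and 0.59 in those of arrested *MAD1 BUB2* cells, against -0.31, -0.38 and -0.17 in cycling *mad1Δ bub2Δ* cells. The cycling cells lay below both nocodazole-treated groups in every library, and the nocodazole-treated groups overlapped each other. Cultures were sequenced in bulk and CPM are relative to the other genes of a library, so a change in every cell cannot be told apart from a larger change in some cells.

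At 37 °C the arrested *cdc24-1 swe1Δ cdc20-1* cells had shifts of 0.44, 0.46 and 0.41 at 16 h, and the library with *SWE1* counts gave the 0.46. Without that library the mean was 0.43. Polyploid *cdc24-1 swe1Δ* cells had shifts of 0.07, 0.24 and 0.09 at 16 h, below every arrested library, and cycling *cdc24-1 swe1Δ* cells had -0.10, 0.02 and -0.07. Of the groups at 37 °C the arrested cells had the larger shift and the smaller DNA content. Cycling *cdc24-1 swe1Δ* cells, at 25 °C, had 85.7, 86.6 and 99.7 kAU at 16 h and no such shift. The relation of the arm's shift to DNA content was not tested.

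The shift built up after 4 h. In polyploid *mad1Δ bub2Δ* cells it averaged 0.00 ± 0.02, 0.19 ± 0.04, 0.56 ± 0.12 and 0.62 ± 0.06 at 4, 8, 12 and 16 h (SD, n = 3). Arrested *MAD1 BUB2* cells followed with 0.03 ± 0.02, 0.25 ± 0.04, 0.44 ± 0.04 and 0.55 ± 0.12, and arrested *cdc24-1 swe1Δ cdc20-1* cells with 0.05 ± 0.11, 0.06 ± 0.15, 0.29 ± 0.04 and 0.44 ± 0.02. Polyploid *cdc24-1 swe1Δ* cells stayed between 0.03 ± 0.08 at 4 h and 0.14 ± 0.04 at 12 h.

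**Figure D1:**
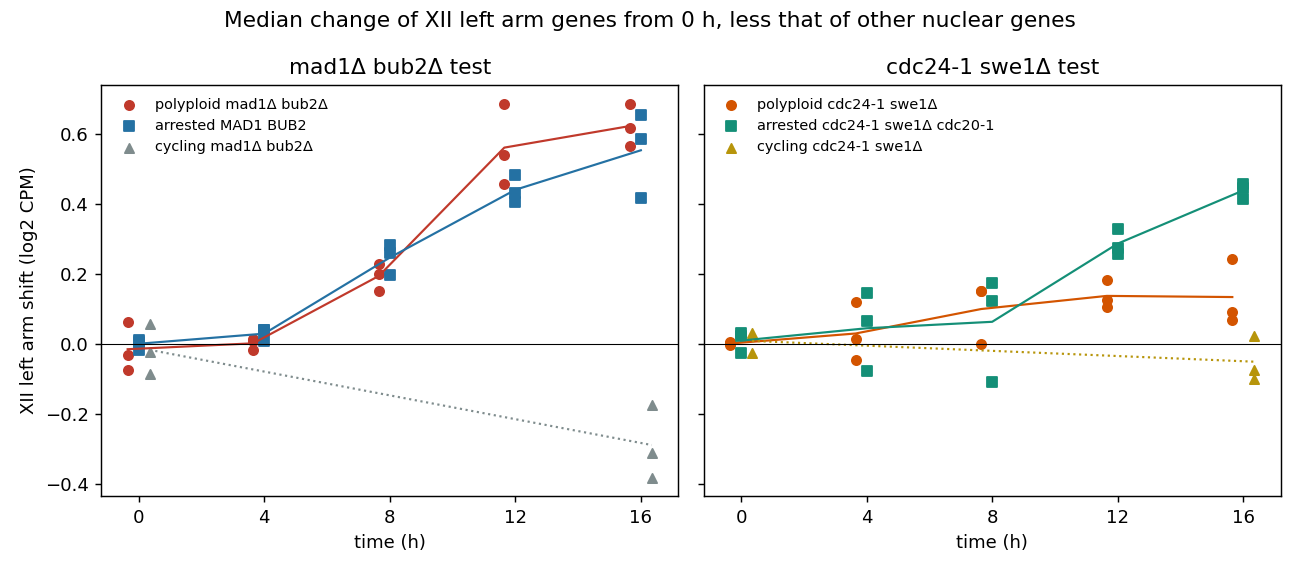
Shift of the chromosome XII left arm genes (median log2 CPM change of 62 members from the 0 h mean of the same cells, minus that of 5578 other nuclear genes) against hours of treatment, with 1 point per library and lines through the means of 3 replicates. The polyploid *mad1Δ bub2Δ* and arrested *MAD1 BUB2* lines climb together to 0.62 and 0.55 at 16 h, the arrested *cdc24-1 swe1Δ cdc20-1* line reaches 0.44, and cycling *mad1Δ bub2Δ* cells fall to -0.29.

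Among the 32 chromosome arms, the left arm of XII had the highest shift in all 3 libraries of polyploid *mad1Δ bub2Δ* cells at 8, 12 and 16 h, and in all 3 libraries of both arrested groups at 12 and 16 h. The next arm at 16 h was the right arm of XII in both nocodazole-treated groups, at 0.40 in each, so that both arms of this chromosome led there. In arrested *cdc24-1 swe1Δ cdc20-1* cells the next arm stood at 0.13 and the right arm of XII at 0.07 ± 0.07 (SD, n = 3), with 0.15 in the library with *SWE1* counts. In cycling *mad1Δ bub2Δ* cells the left arm of XII ranked 31 or 32 in each library, and in polyploid *cdc24-1 swe1Δ* cells it ranked 1 to 9.

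The shift was not a uniform property of the arm. RefSeq places 59 of the 62 members, and 14 of them lie within 40 kb of the left end, a limit chosen after their values were seen. At 16 h these 14 genes were shifted by 2.27, 2.34 and 1.53 in polyploid *mad1Δ bub2Δ* cells and by 1.30, 1.83 and 1.45 in arrested *MAD1 BUB2* cells, against -0.39 ± 0.03 in cycling *mad1Δ bub2Δ* cells (SD, n = 3). At 37 °C they were shifted by 0.54 ± 0.10 in polyploid cells and by 0.77 ± 0.25 in arrested cells, against -0.40 ± 0.21 in cycling *cdc24-1 swe1Δ* cells (SD, n = 3). Of the arrested libraries the one with *SWE1* counts gave 1.05 and the others 0.56 and 0.70.

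The other 45 placed members, up to the centromere, moved less. Their shift at 16 h was 0.33 ± 0.12 in polyploid *mad1Δ bub2Δ* cells, 0.39 ± 0.07 in arrested *MAD1 BUB2* cells, 0.27 ± 0.08 in arrested *cdc24-1 swe1Δ cdc20-1* cells and -0.24 ± 0.09 in cycling *mad1Δ bub2Δ* cells (SD, n = 3). Without the library with *SWE1* counts the arrested 37 °C cells had 0.30. Among the interiors of the 32 arms this ranked 2 in both nocodazole-treated groups, behind the right arm of XII at 0.37 and 0.39, and 1 in arrested *cdc24-1 swe1Δ cdc20-1* cells, with or without the library with *SWE1* counts.

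In windows of 40 kb from the left end inwards, the last ending at the centromere and holding 14 members, the mean 16 h shift of the members in polyploid *mad1Δ bub2Δ* cells was 2.05, 0.08, 0.45 and 0.64, so that the second window was nearly flat. In arrested *MAD1 BUB2* cells it was 1.52, 0.36, 0.43 and 0.31. In arrested *cdc24-1 swe1Δ cdc20-1* cells it was 0.77, 0.27, -0.00 and 0.37, and 0.63, 0.30, 0.01 and 0.38 without the library with *SWE1* counts. Other chromosome ends were higher at 16 h too: the median over the outermost 40 kb of all 32 arms was 0.30 in polyploid *mad1Δ bub2Δ* cells and 0.57 in arrested *MAD1 BUB2* cells. The left end of XII ranked 1 among these ends in polyploid *mad1Δ bub2Δ* cells. It ranked 7 in arrested *MAD1 BUB2* cells, where the left end of XV led at 2.54. It ranked 3 in arrested *cdc24-1 swe1Δ cdc20-1* cells, but 6 without the library with *SWE1* counts, and 10 in polyploid *cdc24-1 swe1Δ* cells.

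**Figure D2:**
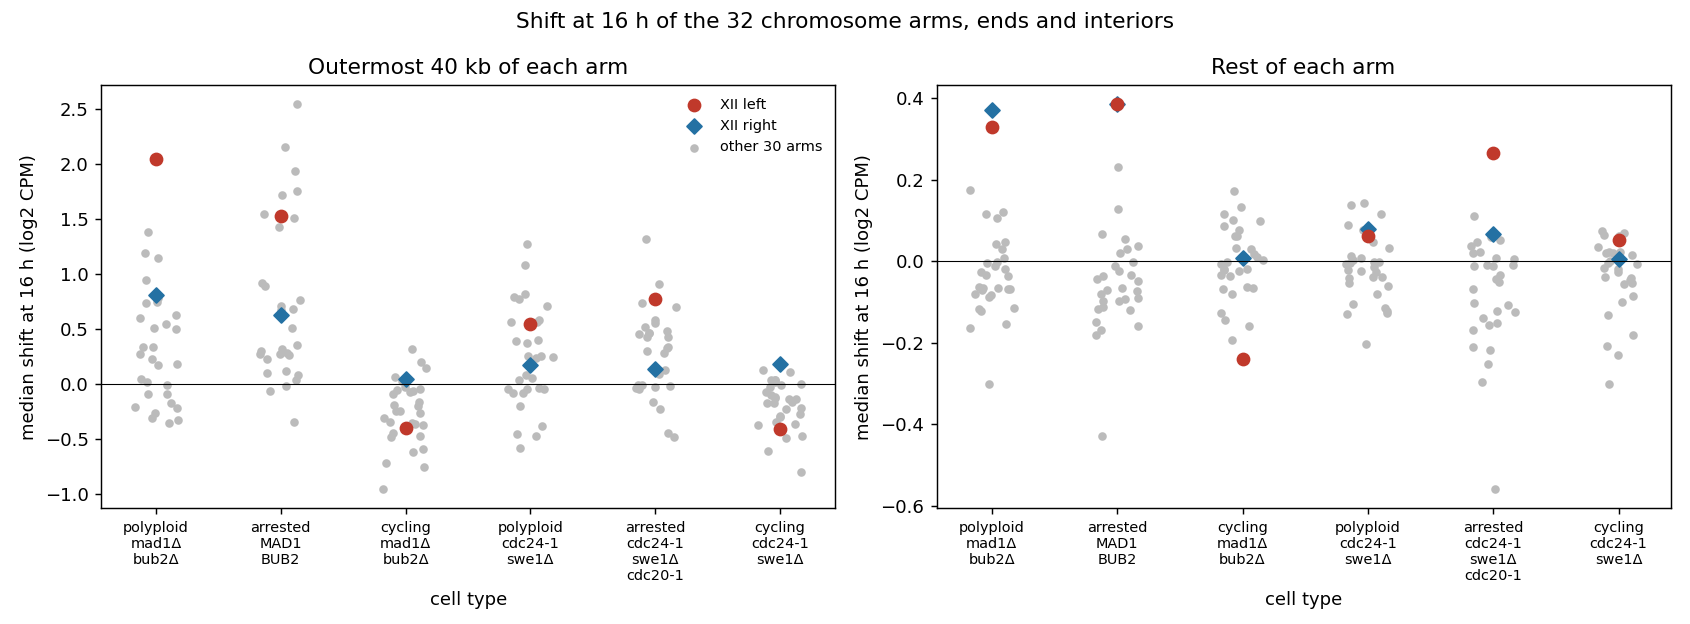
Shift of each of the 32 nuclear chromosome arms at 16 h in each cell type, as means of 3 libraries in log2 CPM, with the outermost 40 kb in the left panel and the rest of the arm in the right panel. The left end of XII stands alone at the top in polyploid *mad1Δ bub2Δ* cells, and the interiors of both arms of XII stand above the other 30 arms in both nocodazole-treated groups.

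**Figure D3:**
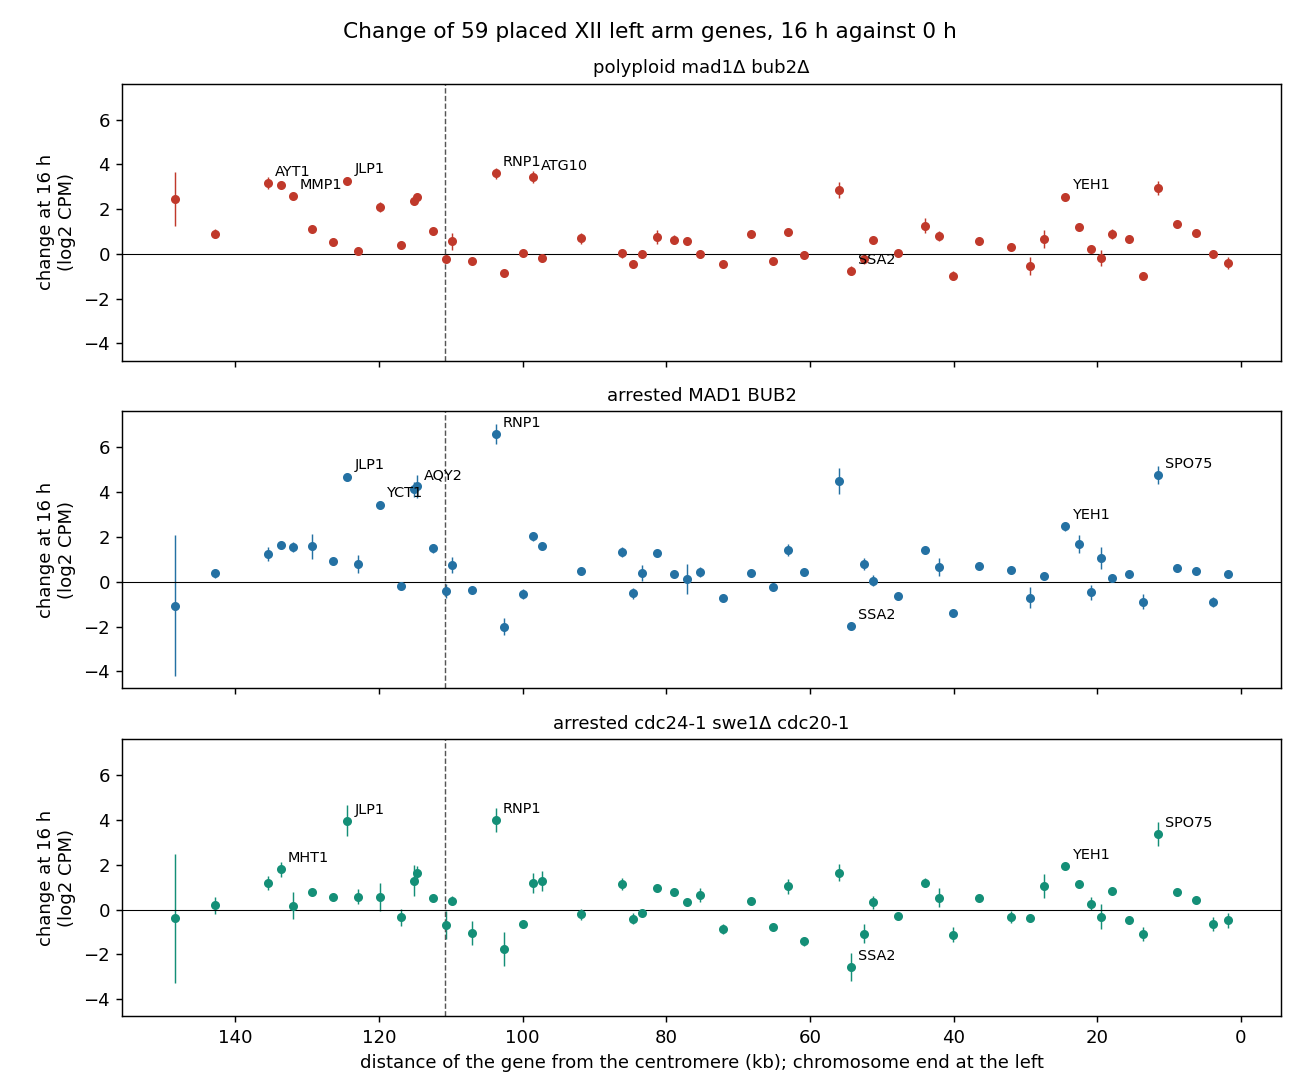
Mean log2 CPM change at 16 h of each of 59 placed members (points, bars showing the SD over 3 libraries) against distance from the centromere in kb, with the chromosome end at the left and a dashed line 40 kb from it, in polyploid *mad1Δ bub2Δ*, arrested *MAD1 BUB2* and arrested *cdc24-1 swe1Δ cdc20-1* cells. All 14 genes left of the line lie above 0 in polyploid *mad1Δ bub2Δ* cells, while the 45 genes right of it lie on both sides of 0.

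By edgeR's quasi-likelihood test with Benjamini-Hochberg adjustment over 6148 genes, 32 members were higher and 6 lower at 16 h than at 0 h in polyploid *mad1Δ bub2Δ* cells, where 22.9% of all genes were called higher and 21.8% lower. In arrested *MAD1 BUB2* cells 33 were higher and 10 lower (31.9% and 25.9% of all genes), and in cycling *mad1Δ bub2Δ* cells 9 and 21 (20.9% and 16.1%). Without replicate 2 of the cycling cells the total of 30 fell to 11. In polyploid *cdc24-1 swe1Δ* cells 19 were higher and 14 lower (26.5% and 23% of all genes), and in arrested *cdc24-1 swe1Δ cdc20-1* cells 29 and 14 (26.1% and 25.2%), or 28 and 14 without the library with *SWE1* counts. Cycling *cdc24-1 swe1Δ* cells had 5 and 5 (7.63% and 6.88%), a total of 10 that was 0 without replicate 2 and 5 without replicate 3. The members are in part defined by this change, so these counts describe them and nothing is read from the comparison with the background.

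The sulfur and glutathione genes, all within 40 kb of the end, had the highest median change of the lists named by function in both nocodazole-treated groups. All 6 were called higher at 16 h in polyploid *mad1Δ bub2Δ* cells, with a median log2 CPM change of 2.34, and all 6 in arrested *MAD1 BUB2* cells, with a median of 1.61. The median change of all nuclear genes was -0.00 and 0.02 in these groups, and 22.9% and 31.9% of all genes were called higher. In arrested *cdc24-1 swe1Δ cdc20-1* cells 5 of the 6 were called higher (median 0.68), beside 26.1% of all genes. Without the library with *SWE1* counts 4 were (median 0.66). In polyploid *cdc24-1 swe1Δ* cells 2 were called higher (median 0.31), beside 26.5% of all genes. In the cycling groups none was called higher and 1 of 6 was called lower in each. Of all genes, 20.9% were called higher and 16.1% lower in cycling *mad1Δ bub2Δ* cells, and 7.63% and 6.88% in cycling *cdc24-1 swe1Δ* cells.

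*JLP1* (chrXII:25756-26994) encodes the sulfonate dioxygenase. It stood at 101, 98.9 and 83.9 CPM at 16 h in polyploid *mad1Δ bub2Δ* cells, against 13.4, 8.11 and 7.81 CPM at 0 h. Arrested cells in the drug went higher, at 186, 234 and 222 CPM at 16 h in *MAD1 BUB2* cells, against 7.71, 8.34 and 7.81 CPM at 0 h. In arrested *cdc24-1 swe1Δ cdc20-1* cells it stood at 141, 64.1 and 154 CPM at 16 h, the middle value being the library with *SWE1* counts, against 7.96, 5.56 and 7.33 CPM at 0 h. These cells had already reached 33.2 to 36.5 CPM at 4 h and 92.0 to 115 CPM at 8 h, ahead of the nocodazole-treated cells, whose libraries lay between 11.2 and 27.0 CPM at 8 h. Polyploid *cdc24-1 swe1Δ* cells had only 19.0, 16.1 and 33.8 CPM at 16 h, against 11.1, 9.69 and 10.9 CPM at 0 h.

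*MMP1* (chrXII:17956-19707) and *MHT1* (chrXII:16639-17613) are divergent neighbours that encode the permease and the methyltransferase for S-methylmethionine. At 16 h *MMP1* stood at 138, 135 and 117 CPM in polyploid *mad1Δ bub2Δ* cells, against 14.4, 8.50 and 76.2 CPM at 0 h, and *MHT1* at 69.6, 59.3 and 56.7 CPM, against 4.56, 2.71 and 26.5 CPM. Both genes were far higher at 0 h in replicate 3 than in replicates 1 and 2, so their change depends on which 0 h library is used. In arrested *MAD1 BUB2* cells *MMP1* reached 197, 255 and 194 CPM at 16 h, against 64.1, 82.8 and 71.7 CPM at 0 h, and *MHT1* reached 45.7, 58.2 and 47.1 CPM, against 18.2, 12.3 and 18 CPM. The 16 h libraries lay above all 0 h libraries for both genes in both groups.

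*YCT1* (chrXII:30109-31704), the cysteine transporter gene, stood at 117, 96.6 and 88.7 CPM at 16 h in polyploid *mad1Δ bub2Δ* cells, against 18.6, 21.3 and 31.7 CPM at 0 h. In arrested *MAD1 BUB2* cells it stood at 232, 292 and 251 CPM at 16 h, against 19.1, 26.7 and 25.0 CPM. At 37 °C its mean log2 CPM change at 16 h was -0.14 in polyploid and 0.57 in arrested cells. In the arrested cells it was called higher (edgeR log2 change 0.67), but not without the library with *SWE1* counts (0.27). *GTT2*, a glutathione S-transferase gene, and *HSU1*, which serves homocysteine synthesis from hydrogen sulfide, changed less, by 1.09 and 0.54 in polyploid *mad1Δ bub2Δ* cells and by 1.58 and 0.91 in arrested *MAD1 BUB2* cells (mean log2 CPM change at 16 h).

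**Figure D4:**
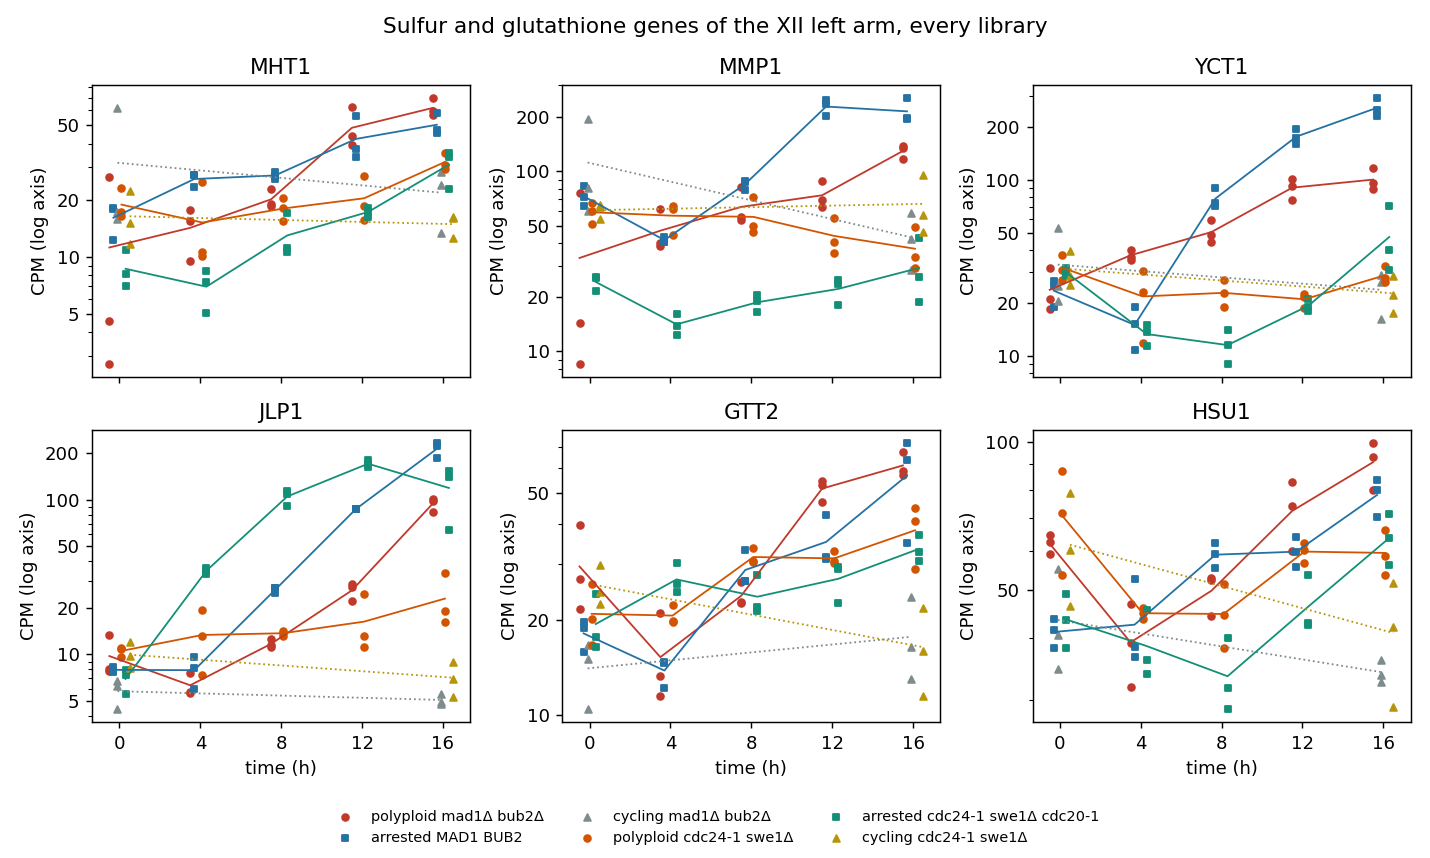
CPM on a log axis of the 6 sulfur and glutathione genes in each library against hours of treatment, with points for libraries and lines through the means of 3 replicates. *JLP1* climbs first in arrested *cdc24-1 swe1Δ cdc20-1* cells and highest in arrested *MAD1 BUB2* cells, to 234 CPM, and replicate 3 of polyploid *mad1Δ bub2Δ* cells at 0 h stands above the other 0 h libraries of these cells for *MMP1* and *MHT1*.

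The sequences upstream of these genes are shown because Met31 and Met32, regulators of sulfur genes, bind DNA with the core CTGTGG, and Cbf1, another such regulator, binds CACGTG. Both words and the window, from 300 to 101 bases before the start codon, were chosen after the values were seen, and both strands were searched. CTGTGG occurred in 4.98% of the 6001 windows of nuclear protein-coding genes, in 5 of the 58 member windows (8.62%), and in 5 of the 14 within 40 kb of the left end (35.7%). Those 5 were *MHT1*, *MMP1*, *JLP1*, *AYT1* and YLL053C. The *MHT1* and *MMP1* windows overlap and hold the same pair of matches, and the YLL053C window lies in the coding sequence of *AQY2*. CACGTG occurred in 3.02% of all windows, in 1 of the 58 member windows and in 0 of the 14. In the windows below (RefSeq, assembly R64, 5′ to 3′ on the strand of the gene), capitals mark CTGTGG or its reverse complement CCACAG. *MMP1* is chrXII:17656-17855 on the plus strand, *JLP1* chrXII:27095-27294 on the minus strand, *AYT1* chrXII:16173-16372 on the minus strand and *YCT1* chrXII:29809-30008 on the plus strand.
MMP1: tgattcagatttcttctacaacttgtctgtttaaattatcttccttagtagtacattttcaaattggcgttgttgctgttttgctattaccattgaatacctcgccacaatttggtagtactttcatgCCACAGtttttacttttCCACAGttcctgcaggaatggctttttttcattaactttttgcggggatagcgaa
JLP1: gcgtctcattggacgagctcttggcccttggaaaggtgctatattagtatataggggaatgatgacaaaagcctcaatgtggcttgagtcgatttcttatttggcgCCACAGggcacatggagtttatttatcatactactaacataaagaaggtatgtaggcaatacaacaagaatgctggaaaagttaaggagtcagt
AYT1: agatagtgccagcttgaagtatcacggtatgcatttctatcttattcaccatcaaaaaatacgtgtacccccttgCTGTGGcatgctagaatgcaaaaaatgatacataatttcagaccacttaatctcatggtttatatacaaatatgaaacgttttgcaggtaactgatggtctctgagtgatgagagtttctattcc
YCT1: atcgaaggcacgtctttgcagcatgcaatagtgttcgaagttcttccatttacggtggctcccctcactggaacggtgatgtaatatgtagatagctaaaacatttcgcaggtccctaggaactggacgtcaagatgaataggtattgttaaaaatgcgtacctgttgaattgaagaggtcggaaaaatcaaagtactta
The *MMP1* window holds both matches as CCACAG, the *JLP1* window holds 1 as CCACAG and the *AYT1* window holds 1 as CTGTGG. *YCT1*, whose 16 h libraries also lay above all its 0 h libraries in the nocodazole-treated cells, has no match in its window. A match is a word in the reference sequence, and binding was not measured.

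*AYT1* (chrXII:14648-16072), an acetyltransferase gene, set the polyploid *mad1Δ bub2Δ* cells apart from the arrested *MAD1 BUB2* cells. It stood at 82.6, 120 and 99 CPM at 16 h in polyploid *mad1Δ bub2Δ* cells, against 10.7, 9.27 and 12.6 CPM at 0 h. Its level was 33.1, 34.6 and 23.1 CPM in arrested *MAD1 BUB2* cells at 16 h, against 19.5, 8.83 and 11.2 CPM. The polyploid libraries at 16 h lay above every arrested library, and the log2 change was larger by 2.00 in polyploid cells. At 37 °C its mean log2 CPM change at 16 h was 0.66 in polyploid and 1.18 in arrested cells. The edgeR difference of -0.52 there was not called, nor was the -0.36 without the library with *SWE1* counts. *AQY2*, a water channel gene, and the overlapping YLL053C had the opposite order to *AYT1* in the nocodazole-treated cells. *AQY2* reached 29.4, 36.8 and 36.9 CPM at 16 h in polyploid *mad1Δ bub2Δ* cells, against 4.41, 4.25 and 9.67 CPM at 0 h, and 56.4, 114 and 67.0 CPM in arrested *MAD1 BUB2* cells, against 4.07, 2.29 and 5.11 CPM. Reads of these overlapping genes cannot be fully told apart.

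At the tip, *YLL066C* and *YLL067C* encode Y′ element helicases that have near-identical copies on other chromosome ends, so their counts are uncertain. YLL067C was at 0 in some libraries and its mean log2 change at 16 h ran from -3.42 in cycling *mad1Δ bub2Δ* cells to 2.87 in polyploid *cdc24-1 swe1Δ* cells. YLL066C changed by 0.90 ± 0.21 in polyploid *mad1Δ bub2Δ* cells and by -1.11 ± 0.32 in cycling *mad1Δ bub2Δ* cells (log2, SD, n = 3).

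Towards the centromere the functional lists moved in both directions. At 16 h, 5 of 6 genes for ribosome synthesis were called higher and 1 lower in polyploid *mad1Δ bub2Δ* cells, and likewise in arrested *cdc24-1 swe1Δ cdc20-1* cells, with median log2 changes of 0.81 and 0.91 (0.89 in the arrested cells without the library with *SWE1* counts, with the same calls). Of all genes, 22.9% were called higher and 21.8% lower in the polyploid cells, and 26.1% and 25.2% in the arrested cells. The higher ones were the assembly factor genes *DRS1*, *SOF1*, *RIX7* and *GRC3* and the RNA-binding protein gene *RNP1*, and the lower one was *RPL8B*, which encodes a protein of the large ribosomal subunit. In arrested *MAD1 BUB2* cells 3 were higher and 1 lower (31.9% and 25.9% of all genes). Polyploid *cdc24-1 swe1Δ* cells also had 3 and 1 (26.5% and 23%). Cycling *cdc24-1 swe1Δ* cells had 4 and 0 (7.63% and 6.88%, median log2 change 0.67), and cycling *mad1Δ bub2Δ* cells 1 and 0 (20.9% and 16.1%). Polyploid *mad1Δ bub2Δ* cells started from a low level in this list. At 0 h, 0 of the 6 were called higher and 4 lower than in DMSO cultures of the same strain (7.19% and 9.22% of all genes). The median log2 difference there was -0.81. *RPL8B* stood at 1304, 1351 and 1140 CPM at 16 h in polyploid *mad1Δ bub2Δ* cells, against 2092, 2106 and 2595 CPM at 0 h. It was at 602, 963 and 913 CPM in arrested *MAD1 BUB2* cells at 16 h, against 3388, 2891 and 3477 CPM. Its paralog *RPL8A* lies elsewhere in the genome, and the split of reads between both copies is uncertain.

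*RNP1* had the largest mean change of any member at 16 h in both polyploid and both arrested groups, but from very few counts. In arrested *cdc24-1 swe1Δ cdc20-1* cells *JLP1* was close behind (3.96 against 4.00). Without the library with *SWE1* counts *JLP1* had the larger edgeR log2 change there (4.44 against 4.18). *RNP1* had 93, 100 and 138 counts at 16 h in polyploid *mad1Δ bub2Δ* cells, against 5, 6 and 11 at 0 h. It had 254, 278 and 306 counts in arrested *MAD1 BUB2* cells, against 4, 1 and 0. With so few counts at 0 h, its log2 change of 3.60 and 6.59 in these cells depends on the prior count of 2. *SPO75*, a gene of spore formation, had a similar course, with 12.8, 8.97 and 13.4 CPM at 16 h in polyploid *mad1Δ bub2Δ* cells, against 2.28, 0.386 and 1.70 CPM at 0 h.

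The other lists were mixed. Their counts stand beside 22.9% of all genes called higher and 21.8% lower in polyploid *mad1Δ bub2Δ* cells, and 31.9% and 25.9% in arrested *MAD1 BUB2* cells, and lists of so few genes are descriptions. Of 4 genes for chromosomes and the spindle, 3 were called higher and 0 lower at 16 h in polyploid *mad1Δ bub2Δ* cells (median log2 CPM change 0.78), with 2 and 1 in arrested *MAD1 BUB2* cells (0.26). Of 8 genes for mitochondria and iron-sulfur proteins, 2 were higher and 2 lower in polyploid *mad1Δ bub2Δ* cells (0.21), with 4 and 1 in arrested *MAD1 BUB2* cells (0.51). *ISA1*, an iron-sulfur assembly gene, was among the higher ones, with 97.1, 97.7 and 110 CPM at 16 h in polyploid *mad1Δ bub2Δ* cells, against 49.0, 50.8 and 53.5 CPM at 0 h. Of 8 genes listed for the vacuole, vesicles and autophagy, 3 were higher and 1 lower in polyploid *mad1Δ bub2Δ* cells (0.04). Arrested *MAD1 BUB2* cells had 4 and 2 (0.51), and this list also holds the nuclear pore gene *POM33*. Genes for polarity, actin and endocytosis gave 0 and 0 of 4 in polyploid *mad1Δ bub2Δ* cells (-0.08) and 1 and 1 in arrested *MAD1 BUB2* cells (-0.47). The list for plasma membrane transport includes the sulfur genes *MMP1* and *YCT1* and also *FRE6*, a vacuolar reductase gene. It gave 4 and 0 of 6 in polyploid *mad1Δ bub2Δ* cells (1.55) and 4 and 1 in arrested *MAD1 BUB2* cells (1.52). Chaperone and ubiquitin genes gave 0 and 1 of 3 in polyploid *mad1Δ bub2Δ* cells (-0.06) and 1 and 1 in arrested *MAD1 BUB2* cells (0.43), and other regulators gave 3 and 1 of 6 in polyploid *mad1Δ bub2Δ* cells (0.44) and 2 and 1 in arrested *MAD1 BUB2* cells (0.30). The 5 outermost members (YLL067C, YLL066C, *AYT1*, *MHT1* and *MMP1*, the last pair also sulfur genes) gave 4 and 0 in polyploid *mad1Δ bub2Δ* cells (2.60) and 3 and 0 in arrested *MAD1 BUB2* cells (1.24).

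*YEH1*, which encodes a steryl ester hydrolase, had higher levels at 16 h in all polyploid and arrested groups, with no overlap with 0 h. It stood at 459, 498 and 470 CPM at 16 h in polyploid *mad1Δ bub2Δ* cells, against 76.5, 74.4 and 91.1 CPM at 0 h. Arrested *MAD1 BUB2* cells had 305, 402 and 334 CPM at 16 h, against 59.8, 59.2 and 66.2 CPM. At 37 °C it stood at 167, 214 and 163 CPM in polyploid cells at 16 h, against 90.3, 73.8 and 86.6 CPM at 0 h, and at 317, 300 and 316 CPM in arrested cells, against 85.2, 79.3 and 80.0 CPM. Only cycling *mad1Δ bub2Δ* cells had less at 16 h, with 56.1, 53.2 and 79.9 CPM, against 119, 128 and 109 CPM at 0 h.

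The members with the highest levels per transcript length, *RPL8B* and *SSA2*, were lower at 16 h in all polyploid and arrested groups. *SSA2*, an Hsp70 chaperone gene with a close paralog, *SSA1*, stood at 3179, 2720 and 2419 CPM at 16 h in polyploid *mad1Δ bub2Δ* cells, against 4168, 4770 and 5096 CPM at 0 h. Arrested *MAD1 BUB2* cells had 2032, 1888 and 1803 CPM at 16 h, against 8223, 7324 and 7078 CPM. At 37 °C it had 952, 2061 and 1014 CPM in arrested cells at 16 h, against 7923, 6472 and 8063 CPM at 0 h, and the library with *SWE1* counts was again apart. By TPM, which allows for transcript length, the 5 members with the highest median level were *RPL8B* (2140), *SSA2* (1115), the cofilin gene *COF1* (1005), the polyubiquitin gene *UBI4* (527) and the disaggregase gene *HSP104* (427), and the lowest was *SPO75* (1.24).

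The change over 16 h differed between polyploid *mad1Δ bub2Δ* and arrested *MAD1 BUB2* cells for 18 members, 8 with a larger and 10 with a smaller log2 change in polyploid cells, where 10.8% and 12.5% of all genes were called (edgeR, Benjamini-Hochberg). Without replicate 2 of the arrested cells 10 were called. Besides *AYT1*, the larger ones included *ORC3*, a subunit of the origin recognition complex, by 0.72, *RTT109*, a histone acetyltransferase gene, by 0.88, *SSA2* by 1.23 and *ATG10*, an autophagy gene of few counts, by 1.77. *ORC3* stood at 60.3, 65.8 and 69.5 CPM at 16 h in polyploid cells, against 29.4, 24.3 and 22.9 CPM at 0 h, and at 37.4, 41.7 and 47.5 CPM in arrested cells, against 26.8, 27.1 and 27.7 CPM.

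Smaller changes in polyploid cells were found for *SDH2*, the iron-sulfur subunit of succinate dehydrogenase, and for *UBI4*. *SDH2* stood at 86.7, 67.9 and 83.1 CPM at 16 h in polyploid *mad1Δ bub2Δ* cells, against 87.3, 97.8 and 86.0 CPM at 0 h. It stood at 168, 175 and 192 CPM in arrested *MAD1 BUB2* cells at 16 h, against 55.3, 58.5 and 63.3 CPM, a difference of -1.78 in log2 change. *UBI4* stood at 704, 547 and 639 CPM at 16 h in polyploid cells, against 606, 629 and 619 CPM at 0 h, and at 724, 859 and 971 CPM in arrested cells, against 330, 332 and 348 CPM, a difference of -1.31. Both genes were higher in the polyploid strain already at 0 h, with no overlap, although the edgeR call of *SDH2* at 0 h held in only 3 of 10 alternatives.

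In the 37 °C cells the change differed for 7 members, 1 with a larger and 6 with a smaller log2 change in polyploid *cdc24-1 swe1Δ* cells than in arrested *cdc24-1 swe1Δ cdc20-1* cells, where 5.71% and 6.77% of all genes were called (edgeR, Benjamini-Hochberg). The total was 4 without polyploid replicate 2 or without arrested replicate 1, 11 without arrested replicate 2 at all times, and 9 without the 16 h library with *SWE1* counts alone. *SDH2* (-1.53), *UBI4* (-1.40) and *JLP1* (-3.05) again had smaller log2 changes in the polyploid cells, and kept their calls without that library (-1.77, -1.56 and -3.38). *SDH2* stood at 108, 63.8 and 100 CPM at 16 h in polyploid cells, against 87.8, 143 and 85.9 CPM at 0 h, and at 389, 214 and 337 CPM in arrested cells, against 140, 95.9 and 144 CPM. The gene with the larger change was *TPO1*, which encodes a polyamine exporter (1.46). Without the library with *SWE1* counts *SSA2* was also called with a larger log2 change (0.98), and *COX19* (-1.79) and YLL066C (-1.12) with smaller ones. *COX19*, of few counts (median 57.5), varied widely, with a log2 CPM change of -2.33 ± 2.34 in the polyploid cells at 16 h (SD, n = 3). YLL066C is a Y′ gene of uncertain counts.

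At 0 h levels of some members already differed between the strains. Between polyploid *mad1Δ bub2Δ* and arrested *MAD1 BUB2* cells 6 members were higher and 3 lower in the polyploid strain, where 5.3% and 3.71% of all genes were called (edgeR, Benjamini-Hochberg). The total of 9 fell to 2 or 3 when any 1 library was left out other than polyploid replicate 3. The ribosome assembly gene *DRS1* kept its call throughout, with 136, 144 and 238 CPM in polyploid-strain cells, against 326, 322 and 298 CPM in arrested-strain cells (log2 difference -0.87 ± 0.19 SE). *UBI4* was higher by a log2 difference of 0.87 ± 0.22 (SE), with no overlap between the groups. *MMP1* was lower by a log2 difference of -1.14 ± 0.37 (SE), but this was -2.65 without the high replicate 3 and -0.69 without replicate 2, and its call held in 4 of 10 alternatives.

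The 0 h libraries of nocodazole and DMSO cultures came from the same *mad1Δ bub2Δ* strain, yet 8 members were higher and 7 lower in the nocodazole cultures, beside 7.19% and 9.22% of all genes (edgeR, Benjamini-Hochberg). Without replicate 2 of the DMSO cultures 9 in all were called. The change from 0 h therefore starts at different levels in these groups. Ribosome assembly genes were lower in the nocodazole cultures. *DRS1* had 136, 144 and 238 CPM, against 457, 495 and 300 CPM in DMSO cultures (log2 difference -1.27 ± 0.19 SE), and *SOF1* and *RIX7* differed by -1.12 and -1.05. YLL056C (chrXII:27409-28305) had 57.2, 67.0 and 15.3 CPM, against 8.90, 7.45 and 9.07 CPM (log2 difference 2.45 ± 0.30 SE), with replicate 3 nearest to the DMSO cultures. *MMP1* had 14.4, 8.50 and 76.2 CPM, against 80.6, 60.5 and 195 CPM (log2 difference -1.76, and -3.27 to -1.09 over the alternatives), and replicate 3 was the highest library of each group.

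Between polyploid *cdc24-1 swe1Δ* and arrested *cdc24-1 swe1Δ cdc20-1* cells at 0 h, 4 members were higher and 4 lower, where 4.49% and 4.67% of all genes were called (edgeR, Benjamini-Hochberg). Leaving out any 1 of the 6 replicates lowered the total of 8 to between 2 and 4, and *TPO1* alone kept its call under every alternative. *TPO1* had 118, 107 and 73.7 CPM in the polyploid strain, against 304, 199 and 313 CPM in the arrested strain (log2 difference -1.45 ± 0.26 SE). Its larger change over 16 h in polyploid cells thus started from a lower level, and at 16 h the groups overlapped, with 186, 118 and 170 CPM in polyploid cells, against 151, 175 and 143 CPM in arrested cells. Between *cdc24-1 swe1Δ* cultures bound for 37 °C and for 25 °C, 0 members were called higher and 0 lower by edgeR, as were 0% and 0% of all genes, with 1 member at an unadjusted p under 0.05 and 0 called by DESeq2.

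The relation to DNA content was fitted within each test over its 36 libraries, which are the libraries of the time courses that singled out the arm. In the *mad1Δ bub2Δ* test 3 members rose with DNA content and 0 fell by edgeR at a Bonferroni-adjusted p under 0.05 (1.89% and 1.28% of all genes). At an unadjusted p under 0.05 there were 21, DESeq2 called 3, and 1 was left without polyploid replicate 1 or 3. No share of all genes is given for these other settings, so nothing is read from their counts. *AYT1* had a slope of 0.56 ± 0.08 log2 units per 100000 arbitrary units (SE), against 0.07, not called, in the *cdc24-1 swe1Δ* test. *SFI1*, a spindle pole body gene, had a slope of 0.19 ± 0.03 (SE). *FRA1*, which helps to repress the iron regulon, had 0.17 ± 0.03 (SE). Only *AYT1* kept its call under every alternative. *SFI1* lost its own with the culture as a replicate block, with the cell type as a covariate and without polyploid replicate 1 or 3. *FRA1* lost its call when any 1 polyploid replicate was left out (slopes 0.15 to 0.18). *SFI1* stood at 116, 135 and 119 CPM at 16 h in polyploid *mad1Δ bub2Δ* cells, above the 83.2, 91.3 and 102 CPM of arrested *MAD1 BUB2* cells.

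In the *cdc24-1 swe1Δ* test YLL053C and *FRE6*, a vacuolar ferric reductase gene, rose with DNA content, 2 members beside 0 that fell (2.75% and 2.06% of all genes), with 22 at an unadjusted p under 0.05 and 4 called by DESeq2. Here too no share of all genes is given for the unadjusted and DESeq2 counts. The slopes of YLL053C and *FRE6* were 0.76 ± 0.10 and 0.36 ± 0.05 log2 units per 100000 arbitrary units (SE). Neither was called with the culture as a replicate block, *FRE6* was not called with the cell type as a covariate, and 4 members were called without the library with *SWE1* counts. No member was called in both tests, although *FRA1* was once the library with *SWE1* counts was left out (slope 0.31), and the difference between their slopes was not tested.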

How the data were processed

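RNA of 72 libraries was sequenced. Per the labels, STAR served for alignment and Salmon for quantification, with R64 as the assembly and versions not given in the sources used here. The authors deposited estimated counts per gene as unnormalized whole numbers, which were used here as counts. Their deposited log2(TPM + 1) values served for levels per transcript length and as an alternative. The depth per library is given with the samples and limits genes of few counts.

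The change of a gene was its log2 CPM (prior count 2, library totals adjusted by TMM factors) minus the 0 h mean of the same cells. Members had a median count of at least 10. TMM factors and edgeR 4.0.16 (filterByExpr, glmQLFit, glmQLFTest, a coefficient per condition) in R 4.3.3 gave the tests between conditions, with Benjamini-Hochberg adjustment over all genes at 0.05. Slopes on the DNA content in the labels were fitted over 36 libraries per test, with Bonferroni adjustment at 0.05. Simulated counts were used to test the fits: 195 of 200 changed genes were found for the 16 h change of polyploid *mad1Δ bub2Δ* cells among 5937 genes, with 11 others. For the difference in change between the nocodazole-treated groups 158 of 200 were found, with 13 others. The size and count level of the changes put into these counts are not given here. Recovery of members with few counts or small changes was not tested. By the study's methods the time points of a cell type were drawn from 1 culture, so within a cell type the replicate number was taken as the culture, and the alternative with it as a block is given beside each call it changed (126 pairs of same-numbered libraries of a cell type, median correlation of their deviations 0.04, 36.5% over 0.1). Between cell types the numbers name no shared culture.

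Alternatives for the tests were DESeq2 1.42.0, no filter on low counts, fits on 1 test alone, a replicate block, cell type as a covariate of the slopes, and leaving out each replicate. For the shift they were a prior count of 0.5, log2(TPM + 1), other filters and comparison genes, and a mean over genes. The members and lists were chosen with earlier results of these data known. Members were named when they belonged to a functional list, had one of the 5 highest median levels, had one of the 5 highest or lowest mean changes in polyploid *mad1Δ bub2Δ* cells at 16 h, lay first or last on the arm, or lay where the shift changed along it. The kit was not stated to mark strand, so YLL020C, YLL044W and YLL059C, which lie on or near *KNS1*, *RPL8B* and *HSU1* and have no RefSeq entry, cannot be told apart from those genes. Figures were drawn with matplotlib 3.10.9.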

Additional observations from a re-analysis of the deposited data

Results flagged for a closer look

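The log2 change over 16 h differed between polyploid *mad1Δ bub2Δ* and arrested *MAD1 BUB2* cells by edgeR's test of the difference (Benjamini-Hochberg) for 18 members, which is a description because this change singled out the arm. The change was larger in polyploid cells for *AYT1* (2.00), *ATG10* (1.77), *SSA2* (1.23), *RPL8B* (1.14), *RTT109* (0.88), *ORC3* (0.72), the polarisome gene *SPA2* (0.71) and *FRA1* (0.50). It was smaller there for *RNP1* (-3.64), *SPO75* (-2.13), *AQY2* (-1.87), YLL053C (-1.86), *SDH2* (-1.78), *JLP1* (-1.48), *YCT1* (-1.37), *UBI4* (-1.31), the nuclear pore gene *POM33* (-1.06) and the mitochondrial fission gene *DNM1* (-0.74). Between polyploid *cdc24-1 swe1Δ* and arrested *cdc24-1 swe1Δ cdc20-1* cells the same test gave a larger change in polyploid cells for *TPO1* (1.46) and a smaller one for *JLP1* (-3.05), *SDH2* (-1.53), *UBI4* (-1.40), *YEH1* (-0.81), *HSU1* (-0.81) and the iron-sulfur assembly gene *ISA1* (-0.67). Without the library with *SWE1* counts *HSU1* was not called (-0.74), while *SSA2* (0.98), *COX19* (-1.79) and YLL066C (-1.12) were. The 16 h change of *COX19* varied widely between the polyploid libraries (SD 2.34, n = 3), and the counts of YLL066C are uncertain.

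In several groups every library moved one way while every library of the cycling cells moved the other way, and these differences were not tested. The 16 h shift of the arm exceeded that of cycling *mad1Δ bub2Δ* cells by 0.91 in polyploid *mad1Δ bub2Δ* cells and by 0.84 in arrested *MAD1 BUB2* cells. For the outermost 40 kb the excess was 2.44 and 1.92 in these groups, and against cycling *cdc24-1 swe1Δ* cells it was 0.95 in polyploid *cdc24-1 swe1Δ* cells and 1.18 in arrested *cdc24-1 swe1Δ cdc20-1* cells (1.04 without the library with *SWE1* counts). For the rest of the arm the excess over cycling *mad1Δ bub2Δ* cells was 0.57 in polyploid *mad1Δ bub2Δ* cells and 0.63 in arrested *MAD1 BUB2* cells.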

How the results depend on the processing

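The small shift of cycling *cdc24-1 swe1Δ* cells, -0.05, changed sign under some alternatives, and no other 16 h shift and no member called at 0 h or for a slope did. Over 79 alternatives for the 16 h shift, 56 moved it by less than the spread between replicates. In polyploid *mad1Δ bub2Δ*, arrested *MAD1 BUB2* and arrested *cdc24-1 swe1Δ cdc20-1* cells the shift was 0.79, 0.68 and 0.37 as a mean over genes, 0.25, 0.17 and 0.38 against the right arm of XII, 0.38, 0.39 and 0.34 without the outermost 40 kb, and 0.34, 0.42 and 0.28 with all genes within 40 kb of any chromosome end left out. In polyploid *mad1Δ bub2Δ* and arrested *cdc24-1 swe1Δ cdc20-1* cells it was 0.55 and 0.38 at a median count of at least 50, and 0.55 and 0.41 without the sulfur list. It was 0.55 in polyploid *mad1Δ bub2Δ* cells without the outermost 20 kb, and 0.41 in arrested *cdc24-1 swe1Δ cdc20-1* cells on log2(TPM + 1). In cycling *cdc24-1 swe1Δ* cells it was 0.0072 without the outermost 20 kb, 0.0055 without replicate 1, 0.043 without the outermost 40 kb, 0.044 away from all ends and 0.029 without the sulfur list. The settings with 40 kb, without the sulfur list and without the library with *SWE1* counts were chosen after seeing the data. Leaving out a replicate gave 0.61 to 0.68 in polyploid *mad1Δ bub2Δ*, 0.53 to 0.55 in arrested *MAD1 BUB2* and 0.42 to 0.49 in arrested *cdc24-1 swe1Δ cdc20-1* cells. Over 119 alternatives for counts of called members, 91 stayed within 1.5 times. For slopes, Benjamini-Hochberg adjustment called 16 members in each test. The share of all genes called that way is not given here, so nothing is read from this count. In the *cdc24-1 swe1Δ* test DESeq2 called 4, leaving out the library with *SWE1* counts 4, the cell type as covariate 1 and the culture as replicate block 0. With the replicate block, 3 members were called between the 37 °C strains at 0 h, and the other counts stayed within 1.5 times. Leaving out a replicate gave 1 to 2 members for the *mad1Δ bub2Δ* slope, 2 to 8 for polyploid *mad1Δ bub2Δ* against arrested *MAD1 BUB2* cells at 0 h, 9 to 19 for the nocodazole against the DMSO cultures at 0 h, and 2 to 4 between the 37 °C strains at 0 h. It gave 10 to 16 for the difference in change between the nocodazole-treated groups, 4 to 11 for that between the 37 °C groups, 11 to 29 for the change of cycling *mad1Δ bub2Δ* cells and 0 to 11 for that of cycling *cdc24-1 swe1Δ* cells. The cause of these moves was not tested. Members of few counts, such as *PAU17* and *ATG10*, are limited by depth.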
